A study of Homo sapiens with 46 samples.

Results

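The human mitochondrial genome is a small circle that carries 37 genes: 13 messenger RNAs (mRNAs), 2 ribosomal RNAs (rRNAs) and 22 transfer RNAs (tRNAs). All 37, recognised by the prefix MT- of their symbols, were found among the 61228 genes measured in HCT116 colon carcinoma cells. The 30160 genes listed for HEK293 embryonic kidney cells included the 13 mRNAs and no rRNA or tRNA with this prefix. The mRNAs encode core subunits of the respiratory chain and of ATP synthase. They work only together with many subunits that are encoded in the nucleus, transcribed there and imported. Both strands of the circle are transcribed as long precursors by the polymerase POLRMT with the factor TFAM, and the tRNAs that lie between the other genes are cut out to free them. Most of the mRNAs then receive a poly(A) tail inside the organelle, whereas MT-ND6, the mRNA on the other strand, is known to carry a very short tail or none.

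The series asked what happens when Ku, the ring of Ku70 and Ku80 that binds DNA ends, is lost from human cells. HCT116 clones 1, 7 and 9 in which Ku80 carries an auxin-inducible degron (Ku80-AID) received 100 µM indole-3-acetic acid (IAA) and 0.5 µg/mL doxycycline for 1, 2, 4 or 6 days, or DMSO for 1 or 2 days. Clones 1 and 9 gave the 1-day libraries, and all 3 clones gave the 2-, 4- and 6-day libraries. A CDK4/6 inhibitor (CDKi) was given with IAA and doxycycline, or alone, for 2 days (clones 1 and 9) or 4 days (clones 1, 7 and 9). Ku80-AID clones 1, 13 and 15 that also lack MAVS, a signalling protein downstream of cytosolic RNA sensors (MAVS-/-), received IAA with doxycycline or DMSO for 4 days. Further HCT116 cells carry 1 floxed and 1 deleted Ku86 (XRCC5) allele, with the tamoxifen-inducible recombinase CreERT2 (Ku86Flox/-:CreERT2) or without it (Ku86Flox/-), and received 50 nM 4-hydroxytamoxifen (4OHT) or ethanol (EtOH) for 4 days, in 2 libraries per group. In HEK293 clones Sa11, SB and TI the Ku70 gene is disrupted and Ku70 comes from a doxycycline-dependent transgene, so these cells were kept without doxycycline for 8 days or with 1 µg/mL of it. Doxycycline is an antibiotic that also inhibits mitochondrial ribosomes. It was present in each IAA group and absent from the DMSO and CDKi groups, and in HEK293 it was present only in the cells that kept Ku70. Its effect and that of Ku loss cannot be told apart in those comparisons; in the Ku86 cells, only 4OHT and EtOH are named in the labels.

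The mitochondrial genes are packed so tightly that some of them share bases, and these stretches decide how far single genes can be told apart in the counts. MT-ATP8 (chrM:8366-8572, GRCh38, + strand) and MT-ATP6 (chrM:8527-9207), which encode the subunits of ATP synthase made in the organelle, overlap by 46 bases on the same strand and lie on 1 messenger. MT-ND4L and MT-ND4 overlap by 7 bases in the same way. Reads from such a stretch fit both genes, so the split of counts within these pairs is an estimate by the authors' program. The shared stretch of the first pair, chrM:8527-8572, is shown for this reason.
MT-ATP8 and MT-ATP6 overlap: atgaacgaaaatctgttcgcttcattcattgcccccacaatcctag

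Many of the mRNAs also need their poly(A) tail to finish the stop codon. RNA with a poly(A) tail was selected for all HCT116 libraries. 6 of the 13 mRNAs ended in an incomplete stop codon in the GENCODE 29 transcripts, 5 of them in a single T and MT-ND1 in TA, and the tail supplies the missing A's. Below, capitals mark the stop codon or the part of it that the gene encodes, at chrM:4233-4262 for MT-ND1, chrM:15858-15887 for MT-CYB, chrM:7416-7445 for MT-CO1 and, on the - strand, chrM:14149-14178 for MT-ND6. MT-ND6 ends in a complete codon of its own.
MT-ND1 end: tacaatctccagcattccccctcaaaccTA
MT-CYB end: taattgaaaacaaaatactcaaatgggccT
MT-CO1 end: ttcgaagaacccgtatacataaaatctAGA
MT-ND6 end: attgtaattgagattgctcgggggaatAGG

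The nuclear genome holds further look-alikes, pieces of mitochondrial DNA that were copied into chromosomes. Each count table listed 404 such copies by name. MTATP6P1 (chr1:633696-634376, + strand), the copy of MT-ATP6, differed from it at 10 of 681 bases (identity 98.5%), with up to 141 identical bases in a row. MTND2P28, beside it on chromosome 1, was 98.4% identical to MT-ND2. The first 60 bases of MT-ATP6 and of MTATP6P1, in which capitals mark the only base that differs, show how little separates reads from the gene and from its copy.
MT-ATP6 (chrM:8527-8586): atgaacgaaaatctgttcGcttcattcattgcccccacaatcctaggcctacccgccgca
MTATP6P1 (chr1:633696-633755): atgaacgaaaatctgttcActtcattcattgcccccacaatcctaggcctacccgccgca
All named copies together had counts equal to 1.99 to 5.12% of those of the mitochondrial genes in the 18 libraries of the MAVS-intact DMSO 2 d, IAA 2, 4 and 6 d and 4-day CDKi groups. In the other 22 HCT116 libraries the range was 1.04 to 1.67%, and in HEK293 0.50 to 1.01%.

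HCT116 libraries held 9527921 to 45747406 estimated counts and HEK293 libraries 19568398 to 28483236. The Ku genes behaved as labelled: XRCC5 was at 24.9 and 30.7 CPM (counts scaled to a common library size) after 4OHT with Cre, against 256 and 258 CPM with EtOH, and XRCC6 was at 339 to 605 CPM in HEK293 cells without doxycycline, against 2269 to 3529 CPM with it. The MAVS transcript was at 108 to 184 CPM in MAVS-/- clones, against 262 to 459 CPM in the MAVS-intact degron clones. The degron acts on the protein, so the XRCC5 transcript does not check it. Of 11 colon epithelial markers 7 averaged at least 1 CPM (summed level 1506 to 4429.8 CPM) in HCT116 and 6 averaged at least 1 CPM (summed level 219 to 401 CPM) in HEK293. Of 8 markers chosen for HEK293 5 averaged at least 1 CPM (summed level 229 to 309 CPM) in HEK293 and 4 averaged at least 1 CPM (summed level 15.9 to 39.4 CPM) in HCT116, so the counts of markers hardly separate the lines and the summed levels do. Of 9 blood and stromal markers 1 did so in HCT116 (summed level 15.2 to 77.1 CPM) and 4 in HEK293 (35.3 to 91.9 CPM).

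The HCT116 libraries fell into 2 sets that the labels do not name. The 18 libraries listed above had 17697 to 21970 genes with counts, 2 to 249 counts over all mitochondrial tRNAs and 42.1 to 245 CPM of MT-ND6. The other 22 (the 1-day, 2-day CDKi, MAVS-/- and Ku86 groups) had 22976 to 25808 genes, 369 to 2431 tRNA counts and 769 to 1702 CPM of MT-ND6, with no overlap in any of the 3 measures. Every comparison of 2 groups lies within 1 set. Within the set of 18, 3 libraries stood apart by tRNA counts: IAA 4 d clone 1, IAA 6 d clone 7 and CDKi 4 d clone 9 had 9.55 to 11.7 CPM over all tRNAs (unscaled by TMM), against 0.197 to 2.89 CPM in the other 15. The part of either difference in the results was not tested.

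Together the mitochondrial genes took 4.16 to 16.1% of the counts of an HCT116 library and 0.789 to 1.51% of a HEK293 library. The 2 lines were enriched for mRNA in different ways, by poly-A selection and by ribosomal RNA depletion, so the levels of the lines are not compared. Counting error on a library's share was small, with 95% Wilson intervals of at most ± 0.0168 percentage points; such intervals cover counting error only, since the reads carried no molecular identifiers. A share is a score over the genes and was given no test. In bulk RNA, more mitochondrial RNA per cell and less nuclear-encoded RNA per cell cannot be told apart.

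**Figure D1:**
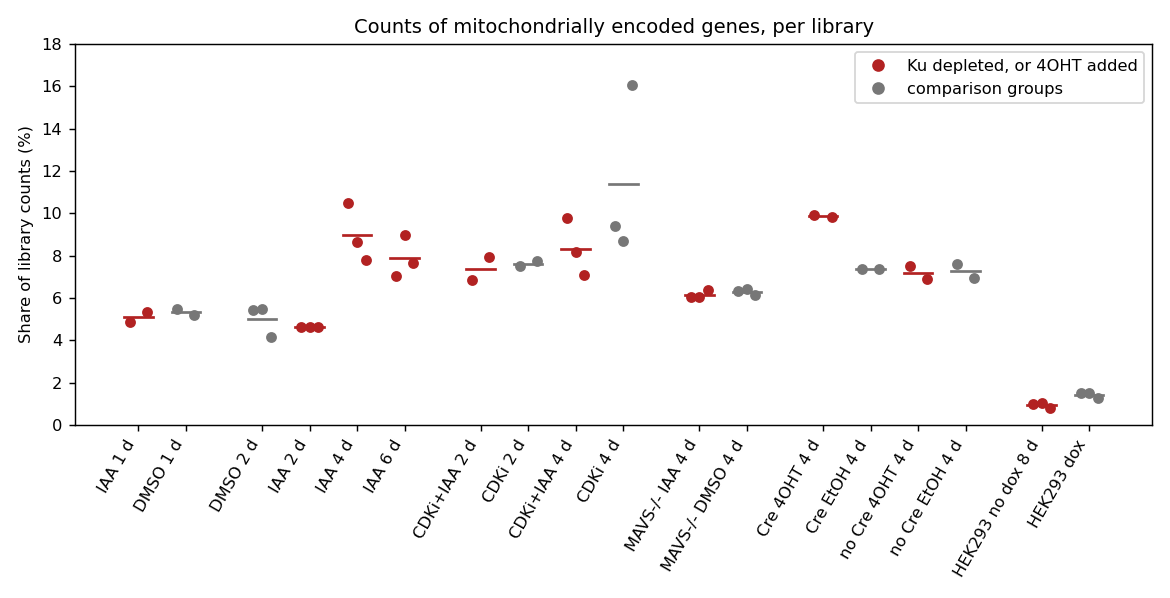
Share of each library's counts taken by mitochondrially encoded genes (vertical axis, percent) for each group (horizontal axis), 1 point per library and a line at the group mean. Red points are groups with Ku depleted or 4OHT added and grey points the groups they are set against; the IAA 4 d libraries lie at 10.5, 8.66 and 7.79%, above the DMSO 2 d libraries at 5.42, 5.47 and 4.16%.

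The share was higher after 4 and 6 days of IAA and after Ku86 excision than in the groups they are set against, and it was lower in HEK293 after Ku70 withdrawal. In clones 1, 7 and 9 it was 5.42, 5.47 and 4.16% with DMSO at 2 days, 4.63, 4.62 and 4.61% with IAA at 2 days, 10.5, 8.66 and 7.79% at 4 days and 7.02, 8.98 and 7.64% at 6 days. The 4- and 6-day values do not overlap those with DMSO or 2 days of IAA. The share of the mRNAs alone was 9.63, 7.57 and 6.81% at 4 days of IAA, against 4.54, 4.65 and 3.38% with DMSO, whereas the 2 rRNAs took 0.84, 1.08 and 0.983%, against 0.884, 0.825 and 0.789%, which overlap. In TPM, which correct for transcript length, the mitochondrial genes made up 18.9 ± 1.81% of the summed TPM at 4 days of IAA and 9.88 ± 1.61% with DMSO (SD, n = 3 each).

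After 4 days of IAA most mitochondrial mRNAs were higher, and neither rRNA passed the test. 12 of 13 mRNAs rose against DMSO 2 d, none fell, and their median log2 fold change was 1.22, against 0.04 over all 18877 genes tested, of which 17.9% rose (edgeR's quasi-likelihood test, adjusted p under 0.05). Day and treatment differ together here, since the DMSO libraries were taken at 2 days. Values below are CPM in clones 1, 7 and 9, and log2 fold changes are ± standard error.

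Among mRNAs and rRNAs the ATP synthase subunits changed most. MT-ATP6, the membrane subunit that forms the proton channel, was at 7161, 7976 and 7457 CPM with IAA and 2697, 2843 and 1546 CPM with DMSO, a log2 fold change of 1.67 ± 0.31 (adjusted p = 0.000103). Every IAA library was above every DMSO library, and the 3 IAA values lay close together. MT-ATP8, its small partner in the membrane, was at 3982, 1126 and 1125 CPM with IAA and 774, 813 and 265 CPM with DMSO, 1.75 ± 0.49 (adjusted p = 0.00639). Clone 1 with IAA stood far above the others, and the groups still did not overlap. Without IAA 4 d clone 1 the log2 fold change of MT-ATP8 was 0.88 and no longer passed (adjusted p = 0.144). The nuclear copy MTATP6P1, whose reads can be mistaken for MT-ATP6, rose as well, by 1.55 ± 0.32. It was not the only copy called, and the others called had larger values with wider errors. MTCO3P12 rose by 2.63 ± 0.62, MTND4P12 by 4.62 ± 1.02 and MTND1P23 by 5.77 ± 1.66, and MTCO2P12 and MTCYBP18 were also called as higher. The remaining copies tested, among them MTCO1P12 and MTND2P28, did not pass. These further copies are named after their values were seen.

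The cytochrome c oxidase subunits, which form the catalytic core of complex IV, rose by different amounts. MT-CO2 (chrM:7586-8269), which takes electrons from cytochrome c, was at 9181, 6538 and 6349 CPM with IAA and 3142, 3230.2 and 2303 CPM with DMSO, 1.35 ± 0.25 (adjusted p = 0.000122). MT-CO3 (chrM:9207-9990) was at 14919.9, 13144 and 10688 CPM with IAA and 6921, 6891 and 5099.8 CPM with DMSO, 1.03 ± 0.22 (adjusted p = 0.000593). The groups were clearly apart for both genes. MT-CO1 (chrM:5904-7445), which holds the heme and copper centre where oxygen is reduced, was at 16196, 19912 and 15115 CPM with IAA and 13767, 14022 and 11038 CPM with DMSO, 0.40 ± 0.14 (adjusted p = 0.0274). Its IAA libraries were the higher ones, by a small margin, and the call was lost without IAA clone 7 (log2 0.27) or without DMSO clone 9 (log2 0.32). MT-CYB (chrM:14747-15887), cytochrome b of complex III, was at 7699.9, 4516 and 4716 CPM with IAA and 2499, 2654 and 2122 CPM with DMSO, 1.22 ± 0.23 (adjusted p = 0.000164), again with no overlap.

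Of the 7 complex I subunits, which build the proton-pumping membrane arm of NADH dehydrogenase, 6 rose. MT-ND4 was at 18565, 12247 and 11382 CPM with IAA and 6109.8, 6530.0 and 4374 CPM with DMSO, 1.31 ± 0.25 (adjusted p = 0.000213). MT-ND4L and MT-ND3 rose by about as much, 1.29 ± 0.27 (adjusted p = 0.00055) and 1.30 ± 0.28 (adjusted p = 0.000771). All 3 kept the IAA libraries above the DMSO libraries. MT-ND5 was at 4383, 3092 and 3435 CPM with IAA and 2547, 2165 and 1852 CPM with DMSO, 0.73 ± 0.23 (adjusted p = 0.0166). MT-ND2 was at 5172, 4762 and 4181 CPM with IAA and 2707, 3865 and 2327 CPM with DMSO, 0.67 ± 0.20 (adjusted p = 0.013). The groups did not overlap for either gene, but the calls were not firm. Leaving out DMSO clone 9 took both below the threshold (log2 0.65 and 0.54), as did leaving out IAA clone 1 for MT-ND5 (log2 0.59) and DMSO clone 1 for MT-ND2 (log2 0.60). MT-ND1 (chrM:3307-4262) was the 1 mRNA that did not pass. It was at 2989, 1286 and 1319.6 CPM with IAA and 1027, 1331 and 1041 CPM with DMSO, 0.72 ± 0.36 (adjusted p = 0.135), so that clone 1 was high with IAA and the other clones lay among the DMSO values; without clone 1 the log2 value was 0.22.

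MT-ND6 (chrM:14149-14673, - strand), the only mRNA copied from the other strand, was at 149, 102 and 88.7 CPM with IAA and 55.8, 67.8 and 68.4 CPM with DMSO, 0.82 ± 0.29 (adjusted p = 0.0317). The IAA libraries were all higher, but the call was lost when IAA clone 1, DMSO clone 1 or DMSO clone 7 was left out (log2 0.59, 0.74 and 0.87). Without the 3 libraries that stood apart it passed, at 0.60. The rRNAs of the mitochondrial ribosome did not pass. MT-RNR1, the RNA of the small subunit, was at 1412, 1269 and 1332 CPM with IAA and 1439, 1419 and 1111 CPM with DMSO, 0.02 ± 0.21 (adjusted p = 0.99), and its values overlapped. MT-RNR2, the RNA of the large subunit, was at 6925, 9917 and 8615 CPM with IAA and 7141, 6759 and 6681 CPM with DMSO, 0.31 ± 0.12, just outside the threshold (adjusted p = 0.05003). Clones 7 and 9 were above all DMSO libraries and clone 1 was among them; without IAA clone 1, MT-RNR2 passed at 0.45 (adjusted p = 0.0055).

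Of the tRNAs, 16 of 22 passed the filter on low counts, mostly through other groups, and MT-TA, MT-TC, MT-TE and MT-TY were called as higher. They are given as counts because the DMSO libraries were near 0. MT-TA, the alanine tRNA, had 106, 26 and 22 counts in clones 1, 7 and 9 with IAA and 0, 2 and 1 counts with DMSO. MT-TE, the glutamate tRNA, had 26, 2 and 0 counts with IAA and 0, 0 and 0 with DMSO. MT-TC, the cysteine tRNA, had 15, 1 and 0 counts with IAA and 0, 0 and 0 with DMSO, and MT-TY, the tyrosine tRNA, had 15, 1 and 0 counts with IAA and 0, 0 and 0 with DMSO. Clone 1 held most of the counts with IAA of each of the 4 tRNAs, and 1 of the tRNAs tested was called without it, as without any 1 of the 3 DMSO libraries.

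Together, 16 of 31 tested mRNAs, rRNAs and tRNAs rose at 4 days, 4 of them tRNAs, while 17.9% of all genes rose. The number was 13 when the 3 libraries that stood apart were left out together, and 10 without DMSO clone 9. MT-ATP6 kept its size in each of these cases, with log2 fold changes of 1.72 and 1.47.

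**Figure D2:**
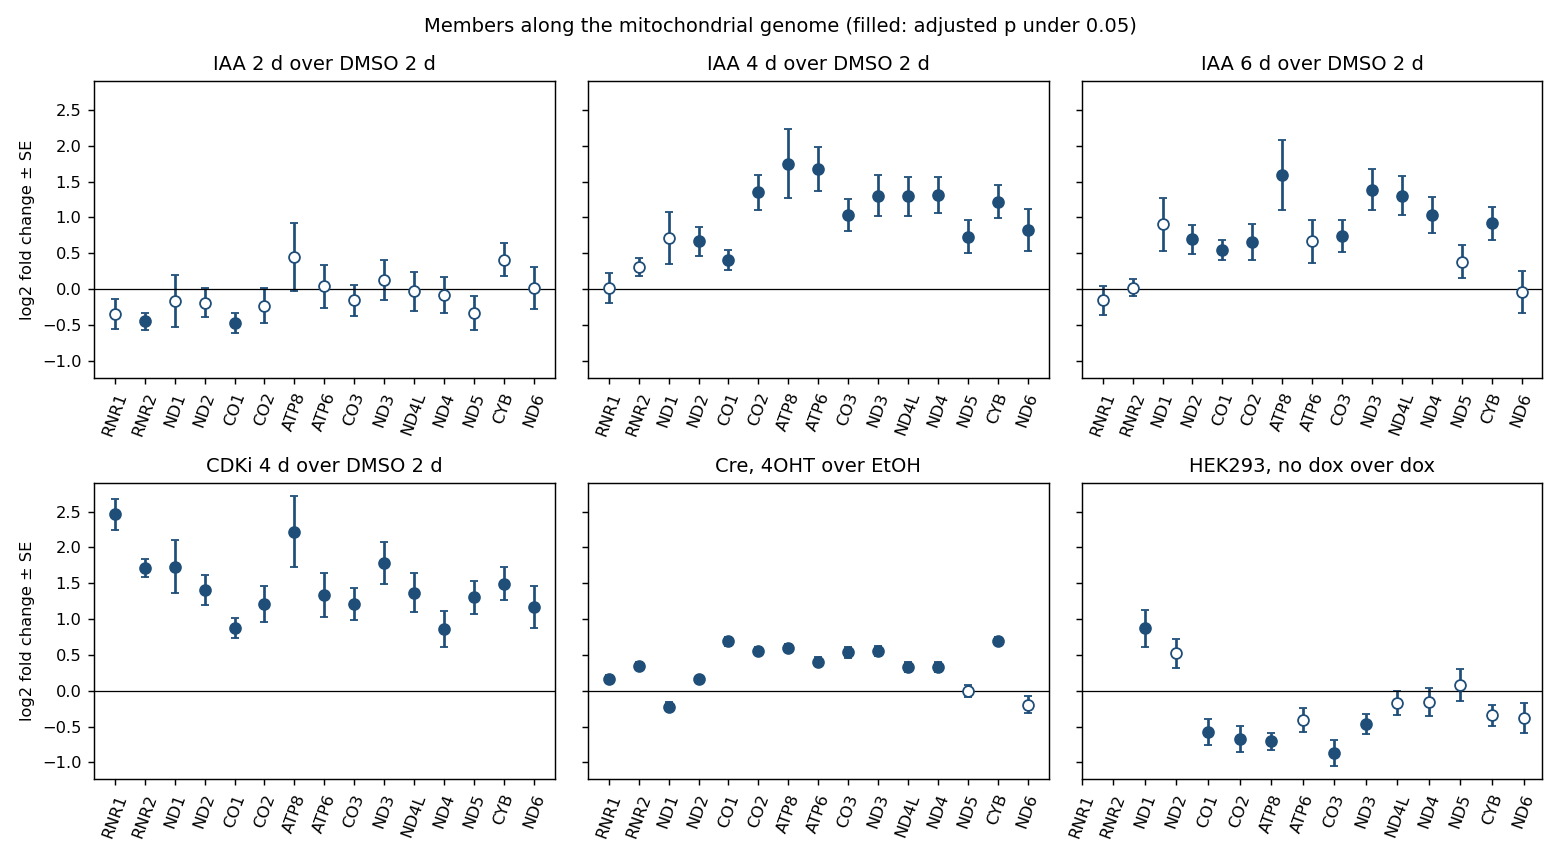
Log2 fold change ± standard error (vertical axis) of the 13 mRNAs and, in HCT116, the 2 rRNAs, ordered along the mitochondrial genome from MT-RNR1 to MT-CYB with MT-ND6 of the other strand last (horizontal axis), in 6 comparisons; filled points passed an adjusted p under 0.05. At 4 days of IAA the 5 genes before MT-CO2 lie between 0.02 and 0.72, and the 9 from MT-CO2 on between 0.73 and 1.75.

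The 4-day values are given here by position along the genome. Along the + strand, the 5 genes that lie first in the long precursor, MT-RNR1, MT-RNR2, MT-ND1, MT-ND2 and MT-CO1, had log2 fold changes of 0.02 to 0.72. The 9 from MT-CO2 to MT-CYB had 0.73 to 1.75, and the gap between the 2 ranges was smaller than the standard error of each of these genes. The ranges overlapped in 5 of the 6 fits that left out 1 library, all but that without DMSO clone 1, and without the 3 libraries that stood apart. The place of this split was chosen after the values were seen, and genes of 1 precursor are not independent, so no test is given. At 6 days the ranges were -0.16 to 0.90 and 0.38 to 1.59, which overlap. For the inhibitor alone at 4 days they were 0.87 to 2.46 and 0.87 to 2.22, with the largest value in the first group, at MT-RNR1.

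Many nuclear genes for the same complexes fell at 4 days of IAA. Among nuclear-encoded subunits of complex I, 1 rose and 20 fell of 37, led by NDUFA9 (-1.51 ± 0.20), the acyl carrier protein NDUFAB1 (-1.42 ± 0.14) and the core subunit NDUFS3 (-1.03 ± 0.11). In complex III 0 rose and 7 fell of 9, with CYC1, cytochrome c1, at -0.97 ± 0.14, in complex IV 0 rose and 5 fell of 11, with COX8A at -0.73 ± 0.23, and in ATP synthase 0 rose and 9 fell of 17, with its catalytic-head subunits ATP5F1A and ATP5F1B at -1.10 ± 0.10 and -0.89 ± 0.10. Complex II, which has no subunit in the mitochondrial genome, had 3 of 4 genes lower, with SDHD, one of its membrane anchors, at -1.10 ± 0.11. Across all genes tested, 14.9% fell, and the median log2 fold changes of the complex lists lay between -0.62 and -0.33.

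Many genes that copy, transcribe and process mitochondrial DNA and RNA also fell, while 14.9% of all genes did. Of the list for mitochondrial DNA maintenance and transcription 1 rose and 10 fell of 17, among them TFAM (-0.86 ± 0.12), POLG2, the accessory subunit of the mitochondrial DNA polymerase (-1.03 ± 0.17), and MTERF2, of the mitochondrial termination factor family (-1.02 ± 0.22). Of the list for processing, stability and decay of mitochondrial RNA 0 rose and 10 fell of 20, with TRMT10C and HSD17B10, both parts of the enzyme complex that cuts the 5' ends of mitochondrial tRNAs, at -0.81 ± 0.18 and -0.76 ± 0.15. Of the import and chaperone genes 0 rose and 11 fell of 12, with the chaperonin pair HSPD1 and HSPE1 at -1.45 ± 0.16 and -1.33 ± 0.17. Of the biogenesis regulators 0 rose and 5 fell of 7, with the coactivator PPARGC1B at -1.10 ± 0.15.

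**Figure D3:**
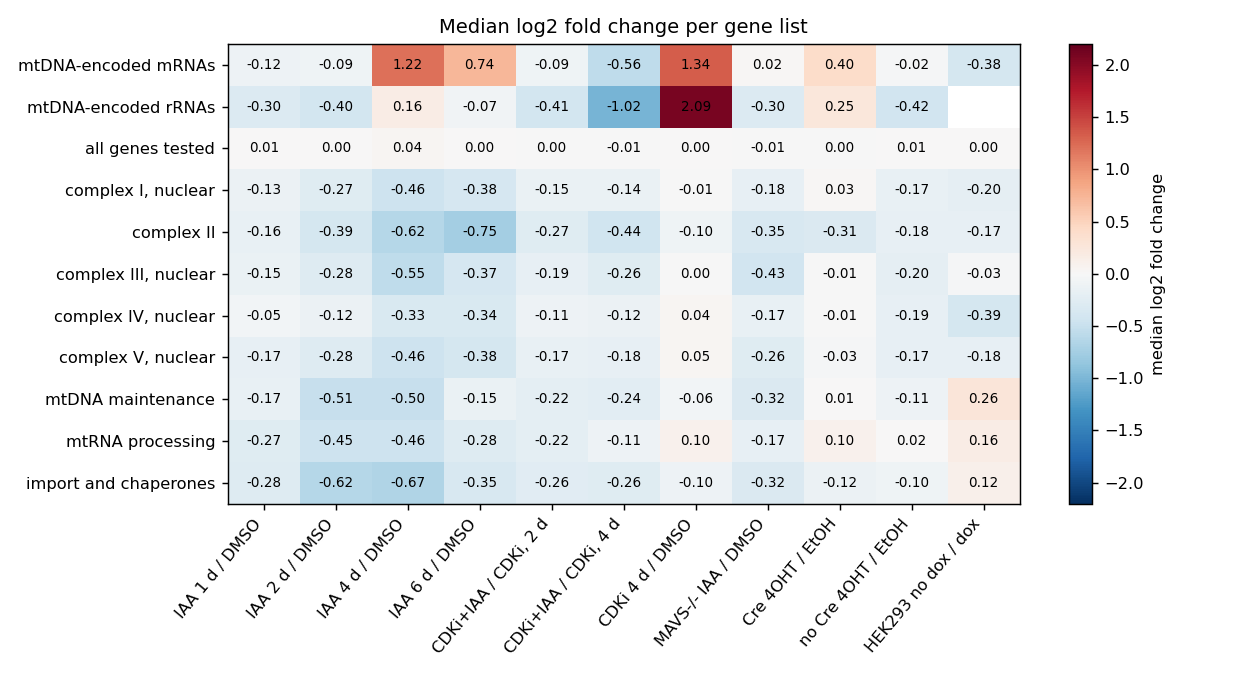
Median log2 fold change (colour and number) of the mitochondrially encoded mRNAs and rRNAs, of all genes tested and of lists of nuclear genes with mitochondrial roles (rows) in 11 comparisons of 2 groups (columns). At 4 days of IAA the mRNAs have a median of 1.22 while each nuclear list is below 0; with the CDK4/6 inhibitor alone the mRNAs are at 1.34 and the nuclear lists near 0.

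No mitochondrial gene was called as higher before 4 days. The share of counts after 1 day was 4.88 and 5.31% in clones 1 and 9 with IAA and 5.49 and 5.17% with DMSO. After 1 day of IAA 0 of 31 mitochondrial genes passed in edgeR, 1 had an unadjusted p under 0.05, and DESeq2 and limma called 0 as well; 0.185% of all genes were called. MT-ND6 was at 1098 and 1547 CPM in clones 1 and 9 with IAA and 1515 and 1371 CPM with DMSO (-0.13 ± 0.35), and among mRNAs and rRNAs the rRNAs had the largest differences, -0.33 ± 0.15 for MT-RNR2 and -0.27 ± 0.25 for MT-RNR1. After 2 days MT-CO1 and MT-RNR2 fell, 2 of 31, which is no more than the 9.94% of all genes that fell. MT-RNR2 was at 4696, 4883 and 5462 CPM with IAA and 7141, 6759 and 6681 CPM with DMSO, -0.45 ± 0.12 (adjusted p = 0.00792), and MT-CO1 at 10405, 9188 and 8360.0 CPM with IAA and 13767, 14022 and 11038 CPM with DMSO, -0.47 ± 0.14 (adjusted p = 0.0157). The rRNA values were well apart and those of MT-CO1 nearly touched. Leaving out IAA clone 7 took both calls, and leaving out any other library except DMSO clone 9 took 1 of them. MT-ND6 at 2 days differed by 0.02 ± 0.29.

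Against 2 days of IAA, 4 days raised 12 of 31 mitochondrial genes, 10 of them mRNAs, while 4.73% of all genes rose. The largest changes were again at MT-ATP6 (1.64 ± 0.30, adjusted p = 0.00104) and MT-CO2 (1.58 ± 0.25, adjusted p = 0.000212), and MT-ND6 differed by 0.81 ± 0.29 without passing (adjusted p = 0.088). Both groups in this comparison contained doxycycline, for 2 and for 4 days, so the durations of doxycycline, IAA and culture cannot be told apart. MT-RNR2, which had fallen at 2 days, was higher at 4 than at 2 days of IAA by 0.76 ± 0.12 (chosen after its values were seen).

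At 6 days the rise was kept in part. Against DMSO 2 d, 12 of 31 genes rose, 9 of them mRNAs, while 17.8% of all genes rose. MT-ATP8 was at 1919, 1664 and 1991 CPM with IAA and 774, 813 and 265 CPM with DMSO, 1.59 ± 0.48 (adjusted p = 0.0116), and MT-ND3 at 794, 1121 and 878 CPM with IAA and 369, 454 and 246 CPM with DMSO, 1.39 ± 0.29 (adjusted p = 0.000393). Both genes kept the groups apart, but MT-ATP8 lost its call without DMSO clone 9 (log2 1.26). MT-ND6 was at 42.1, 85.3 and 60.1 CPM with IAA and 55.8, 67.8 and 68.4 CPM with DMSO, which overlap (-0.04 ± 0.29). The number of genes called was 10 without the 3 libraries that stood apart and 7 without DMSO clone 9. Between 6 and 4 days of IAA, MT-ATP6 and MT-ND6 fell, 2 of 31, which is no more than the 7.11% of all genes that fell. MT-ATP6 was at 1998, 4226 and 5039.9 CPM at 6 days and 7161, 7976 and 7457 CPM at 4 days, -1.004 ± 0.30 (adjusted p = 0.0289). The 6-day values were all lower and widely spread, and the call was lost without IAA 6 d clone 1, IAA 4 d clone 7 or IAA 4 d clone 9. MT-ND6 changed by -0.86 ± 0.29 (adjusted p = 0.04996) and lost its call in 4 of the 6 fits that left out 1 library. The count of 2 was 0 without IAA 6 d clone 1 or IAA 4 d clone 7, 1 without clone 9 of either group and 6 without IAA 6 d clone 7.

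After 4 days of the CDK4/6 inhibitor without IAA, mitochondrial mRNAs and rRNAs were higher than with DMSO at 2 days. The inhibitor holds cells before DNA replication. Day and treatment differ together here as well, so inhibitor and time cannot be told apart. Against DMSO 2 d, all 13 mRNAs and both rRNAs rose, and MT-TA among the tRNAs, while 3.85% of all genes rose. MT-RNR1 was at 6247, 5653 and 9985 CPM with the inhibitor and 1439, 1419 and 1111 CPM with DMSO, 2.46 ± 0.22 (adjusted p = 6.87e-08). The next largest change was at MT-ATP8, with 1533, 1470.3 and 5625 CPM with the inhibitor and 774, 813 and 265 CPM with DMSO, 2.22 ± 0.49 (adjusted p = 0.00552). Clone 9 with the inhibitor was far above the other clones for MT-ATP8 and less so for MT-RNR1. The share of counts was 9.4, 8.67 and 16.1% with the inhibitor, and clone 9 was the highest library of the series by that measure. Without it 10 genes were called in place of 16, MT-ATP8 was at log2 1.33 (adjusted p = 0.0885), and MT-RNR1 stayed at 2.22. MT-ND6 was at 83.7, 102 and 245 CPM with the inhibitor and 55.8, 67.8 and 68.4 CPM with DMSO, 1.17 ± 0.29 (adjusted p = 0.0133), and lost its call without clone 9 (log2 0.59) or without DMSO clone 1.

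Most of the listed nuclear genes were not called with the inhibitor alone, as was true of all genes tested. Of the 37 nuclear-encoded complex I genes 1 rose and 3 fell, with a median of -0.01. None of the 17 ATP synthase genes, the 17 genes for mitochondrial DNA maintenance and transcription or the 20 genes for RNA processing was called, while 7.69% of all genes were. The difference between the 2 treatments in these lists was not tested as such.

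**Figure D4:**
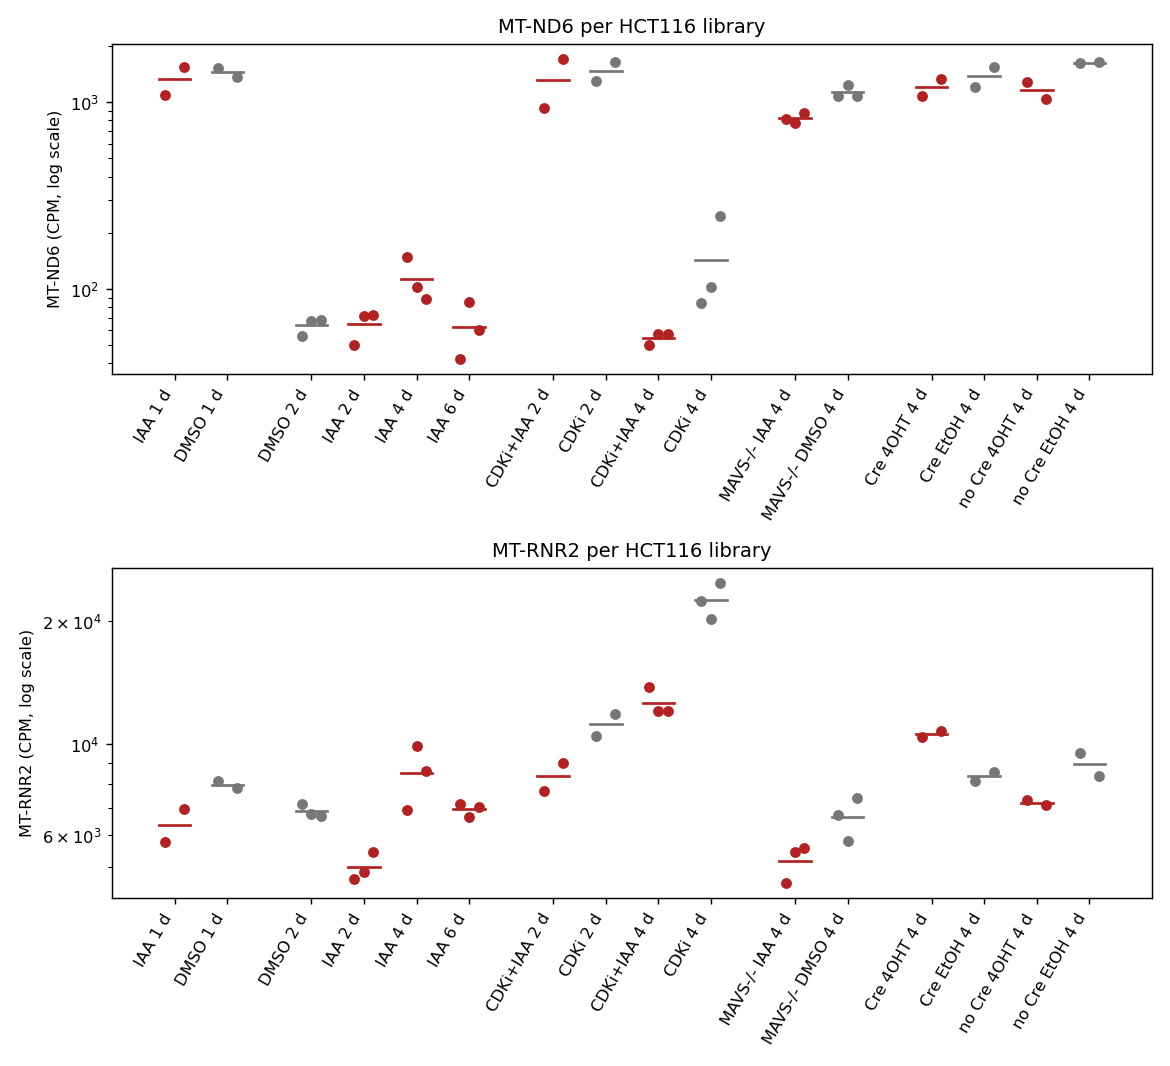
Level of MT-ND6 (upper panel) and MT-RNR2 (lower panel) in every HCT116 library (vertical axis, CPM on a log scale) by group (horizontal axis), 1 point per library with a line at the mean; red groups had Ku depleted or 4OHT added. MT-ND6 separates 18 libraries, at 42.1 to 245 CPM, from the other 22, and within the set of 18 MT-RNR2 is highest in the 4-day CDKi libraries at 22396, 20263 and 24757 CPM.

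With the inhibitor present, 4 days of IAA lowered both rRNAs, and most mitochondrial mRNAs did not pass. At 4 days MT-RNR1, MT-RNR2, MT-ND6 and MT-ND4L fell, 4 of 31, and none rose, while 5.1% of all genes fell. The rRNAs and MT-ND4L are named after their values were seen. MT-RNR2 was at 13831, 12079 and 12037 CPM with inhibitor and IAA and 22396, 20263 and 24757 CPM with the inhibitor alone, -0.83 ± 0.12 (adjusted p = 3.79e-05). MT-RNR1 was at 3367, 3125 and 2979 CPM with both and 6247, 5653 and 9985 CPM with the inhibitor alone, -1.21 ± 0.21 (adjusted p = 0.000284). The groups did not overlap for either rRNA. MT-ND6 was at 50.2, 57.2 and 57.5 CPM with both and 83.7, 102 and 245 CPM with the inhibitor alone, -1.39 ± 0.30 (adjusted p = 0.00243), also with no overlap. Without CDKi clone 9, the highest library, MT-ND6 was at -0.78 (adjusted p = 0.0406). MT-ATP8, at -1.29 ± 0.48, did not pass (adjusted p = 0.0846), and its size rested on the same library, being -0.38 without it. It passed without CDKi clone 7 (-1.61). The share of counts was 9.76, 8.15 and 7.08% with both and 9.4, 8.67 and 16.1% with the inhibitor alone, which overlap. The number of calls was 9 without CDKi clone 7 and 4 without the 3 libraries that stood apart.

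At 2 days the share of counts was 6.83 and 7.93% in clones 1 and 9 with inhibitor and IAA and 7.49 and 7.73% with the inhibitor alone. At this time 0 of 31 mitochondrial genes differed between inhibitor with IAA and inhibitor alone in edgeR, DESeq2 or limma; 1 had an unadjusted p under 0.05, and 0.413% of all genes were called. MT-RNR2 (-0.42 ± 0.15) and MT-RNR1 (-0.39 ± 0.25) had the largest differences among mRNAs and rRNAs, and MT-ND6 was at 932 and 1702 CPM in clones 1 and 9 with both and 1298 and 1648 CPM with the inhibitor alone.

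The 4-day response to IAA differed with and without the inhibitor in a test of the difference itself. With the inhibitor the control was taken at 4 days and without it at 2 days of DMSO, so the inhibitor and the control time cannot be told apart. The response was more negative with the inhibitor for 17 of 31 genes, 12 of them mRNAs and 2 rRNAs, while 2.5% of all genes were called in that direction. MT-ATP8 differed by -3.04 ± 0.68 (adjusted p = 0.0101), MT-ATP6 by -2.26 ± 0.43 (adjusted p = 0.00271) and MT-ND6 by -2.21 ± 0.42 (adjusted p = 0.00271). The responses behind the MT-ATP6 value were -0.58 ± 0.30 with the inhibitor and 1.67 ± 0.31 without it. The number of calls was 10 without CDKi clone 9, 11 without DMSO clone 9 and 12 without the 3 libraries that stood apart. MT-ATP8 lost its call without CDKi clone 9 (log2 -2.16) and without the 3 (log2 -1.26, adjusted p = 0.113), and MT-ND6 was then at -1.38 (adjusted p = 0.00369).

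In the MAVS-/- clones no mitochondrial gene passed after 4 days of IAA. edgeR and limma called 0 of 31 and DESeq2 called 1, 1 had an unadjusted p under 0.05, and 7.88% of all genes were called. The share of counts was 6.06, 6.03 and 6.35% in clones 1, 13 and 15 with IAA and 6.33, 6.41 and 6.16% with DMSO. MT-ATP6, added here because it had risen in the MAVS-intact clones, was at 4059, 4448 and 4324 CPM with IAA and 4103, 4021 and 3665 CPM with DMSO, with overlapping values. The largest differences were at MT-ND6, with 810.5, 769 and 876 CPM with IAA and 1083, 1229.9 and 1082 CPM with DMSO (-0.47 ± 0.28, adjusted p = 0.405), and at MT-RNR2, with 4570.2, 5444 and 5570.0 CPM with IAA and 6712, 5789.7 and 7404 CPM with DMSO (-0.35 ± 0.12, adjusted p = 0.0703). Neither passed, although the groups did not overlap for either gene; without the DMSO library of clone 13, MT-RNR2 did (-0.44), the only gene called in the fits that left out 1 library. Among nuclear genes of the respiratory complexes 5 of 9 fell in complex III and 5 of 37 in complex I, while 3.15% of all genes fell.

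Set against the response of the MAVS-intact clones, the response was more negative without MAVS for 7 of 31 genes, while 2.39% of all genes were called in that direction. MT-ATP6 differed by -1.55 ± 0.42 (adjusted p = 0.0302), MT-ATP8 by -1.57 ± 0.67 (adjusted p = 0.199) and MT-ND6 by -1.29 ± 0.41 (adjusted p = 0.0665). Without IAA 4 d clone 1 the value of MT-ATP8 was -0.72. MT-ND6 passed without IAA 4 d clone 9 (-1.44) and without the 3 libraries that stood apart (-1.08). The MAVS-/- libraries lie in the set of 22 and the MAVS-intact ones in the set of 18, the control times differ (4 and 2 days of DMSO), and the clones differ, so MAVS loss, library set, time and clone cannot be told apart. The number of calls ran from 2 to 10 when single libraries were left out. It was 2 without DMSO 2 d clone 9, 3 without IAA 4 d clone 7 or either MAVS-/- library of clone 1, and 4 without DMSO 2 d clone 7, MAVS-/- DMSO clone 13 or MAVS-/- IAA clone 15, and it was 12 without the 3 libraries that stood apart. MT-ATP6 lost its call in 6 of the 12 fits that left out 1 library, with values of -1.71 to -1.32.

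After excision of Ku86 by Cre, most mitochondrial mRNAs were higher than with EtOH. The share of counts was 9.89 and 9.82% after 4OHT and 7.38 and 7.36% with EtOH. Of 13 mRNAs 10 rose and 1 fell, and both rRNAs rose; over the 29 mitochondrial genes tested, 18 rose and 4 fell, against 26.4% and 27.5% of all 16726 genes. Whether libraries of a group come from separate cultures is not stated in the labels, so these p-values may reflect technical spread only. MT-CYB was at 7113 and 7106 CPM after 4OHT and 4584 and 4177 CPM with EtOH, 0.70 ± 0.06 (adjusted p = 2.36e-07). MT-CO1 was at 26330.0 and 26043 CPM after 4OHT and 16046 and 16469 CPM with EtOH, 0.69 ± 0.06 (adjusted p = 8.94e-07). Replicates lay close together for both. MT-ND6 was at 1083 and 1323 CPM after 4OHT and 1210.4 and 1542 CPM with EtOH, -0.19 ± 0.12 (adjusted p = 0.176), and the values overlapped; it passed without the 1st EtOH library (-0.36). The mRNA that fell was MT-ND1, at -0.22 ± 0.07 (named after its values were seen).

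Of nuclear complex I genes 8 rose and 7 fell of 37 after excision, no more than the 26.4% and 27.5% of all genes, and their median was 0.03. Complex II fell in 3 of 4 genes, with its iron-sulfur subunit SDHB at -0.39 ± 0.06. Of the list for mitochondrial DNA maintenance and transcription 3 rose and 5 fell of 17, with a median of 0.01, and TFAM was at -0.66 ± 0.08. Of the import and chaperone genes 0 rose and 5 fell of 12, with HSPD1 at -0.55 ± 0.05. Of the biogenesis regulators 1 rose and 5 fell of 7. The transcription factor NRF1 was lower, at -0.75 ± 0.09. Of the list for processing, stability and decay of mitochondrial RNA 7 rose and 1 fell of 20. REXO2, the mitochondrial oligoribonuclease, rose by 0.86 ± 0.06.

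Without Cre, 4OHT gave a different picture. The share of counts was 7.5 and 6.87% after 4OHT and 7.59 and 6.92% with EtOH. Of 29 genes tested 1 rose and 11 fell, while 7.26% and 6.44% of all genes did so. MT-RNR1 was at 1039 and 1101 CPM after 4OHT and 1634 and 1456 CPM with EtOH, -0.53 ± 0.06 (adjusted p = 0.000131). MT-ND6 was at 1283 and 1037 CPM after 4OHT and 1621 and 1635 CPM with EtOH, -0.49 ± 0.12 (adjusted p = 0.015). For both genes the groups were apart. Without the 2nd 4OHT library 5 genes were called in place of 12, and MT-ND6 was not among them (log2 -0.34).

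The response to 4OHT was more positive with Cre than without it for 18 of 29 genes and more negative for 2, while 18.8% and 22.4% of all genes were called. MT-ND3 differed by 0.78 ± 0.09 (adjusted p = 2.07e-05) and MT-CYB by 0.71 ± 0.08 (adjusted p = 1.02e-05), and MT-ND6 by 0.29 ± 0.16 (adjusted p = 0.172), which passed without the 2nd EtOH library with Cre (0.48) or the 1st 4OHT library without Cre (0.46). The responses behind the value of MT-ND3 were 0.55 ± 0.07 with Cre and -0.23 ± 0.07 without it. The 2 genes in the other direction were the tRNAs MT-TF and MT-TS2.

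In HEK293 mitochondrial mRNAs took a smaller share after Ku70 withdrawal. After 8 days without doxycycline the share of counts was 1.02, 0.976 and 0.789% in clones Sa11, SB and TI, against 1.51, 1.49 and 1.27% with doxycycline. It was lower in each clone, and the groups did not overlap. Of 13 mRNAs 5 fell and 1 rose, while 10.9% of all 15549 genes fell and 11.1% rose.

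MT-CO3 was at 2433, 1727 and 1801 CPM in clones Sa11, SB and TI without doxycycline and 3907, 3527 and 3430.3 CPM with it, -0.87 ± 0.18 (adjusted p = 0.011). MT-ND1 was at 118, 261 and 156 CPM without doxycycline and 85.6, 93.1 and 113 CPM with it, 0.87 ± 0.26 (adjusted p = 0.0381). The first was lower and the second higher in all 3 clones, and clone SB without doxycycline stood out as the highest for MT-ND1. The nuclear copy MTND1P23, 95.4% identical to MT-ND1 over 371 aligned bases, rose by 2.72 ± 0.44, the only copy called. MTND2P28, the copy of MT-ND2, was at 1.02 ± 0.33 and did not pass. Both copies are named after their values were seen, and mixing of reads between genes and copies was not tested. MT-ND6 was at 8.49, 8.49 and 11.1 CPM without doxycycline and 10.3, 12 and 14.4 CPM with it, -0.38 ± 0.21 (adjusted p = 0.223). It was lower in each clone, but the groups overlapped. The other 4 mRNAs that fell, named after their values were seen, were MT-ATP8 (-0.70 ± 0.12), MT-CO2 (-0.67 ± 0.18), MT-CO1 (-0.57 ± 0.18) and MT-ND3 (-0.46 ± 0.14). With the clone as a block, 9 of 13 mRNAs were called. Without the block calls were lost when single libraries were left out: 1 was left without the doxycycline library of Sa11, 2 without that of SB, 3 without that of TI and 2 without the withdrawal library of TI. The rise of MT-ND1 lost its call in each of these 4 fits, with values of 0.79 to 1.00. Without the withdrawal library of SB it was 0.53 and passed, and MT-CO3 lost its call without the doxycycline library of Sa11 (log2 -0.81).

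**Figure D5:**
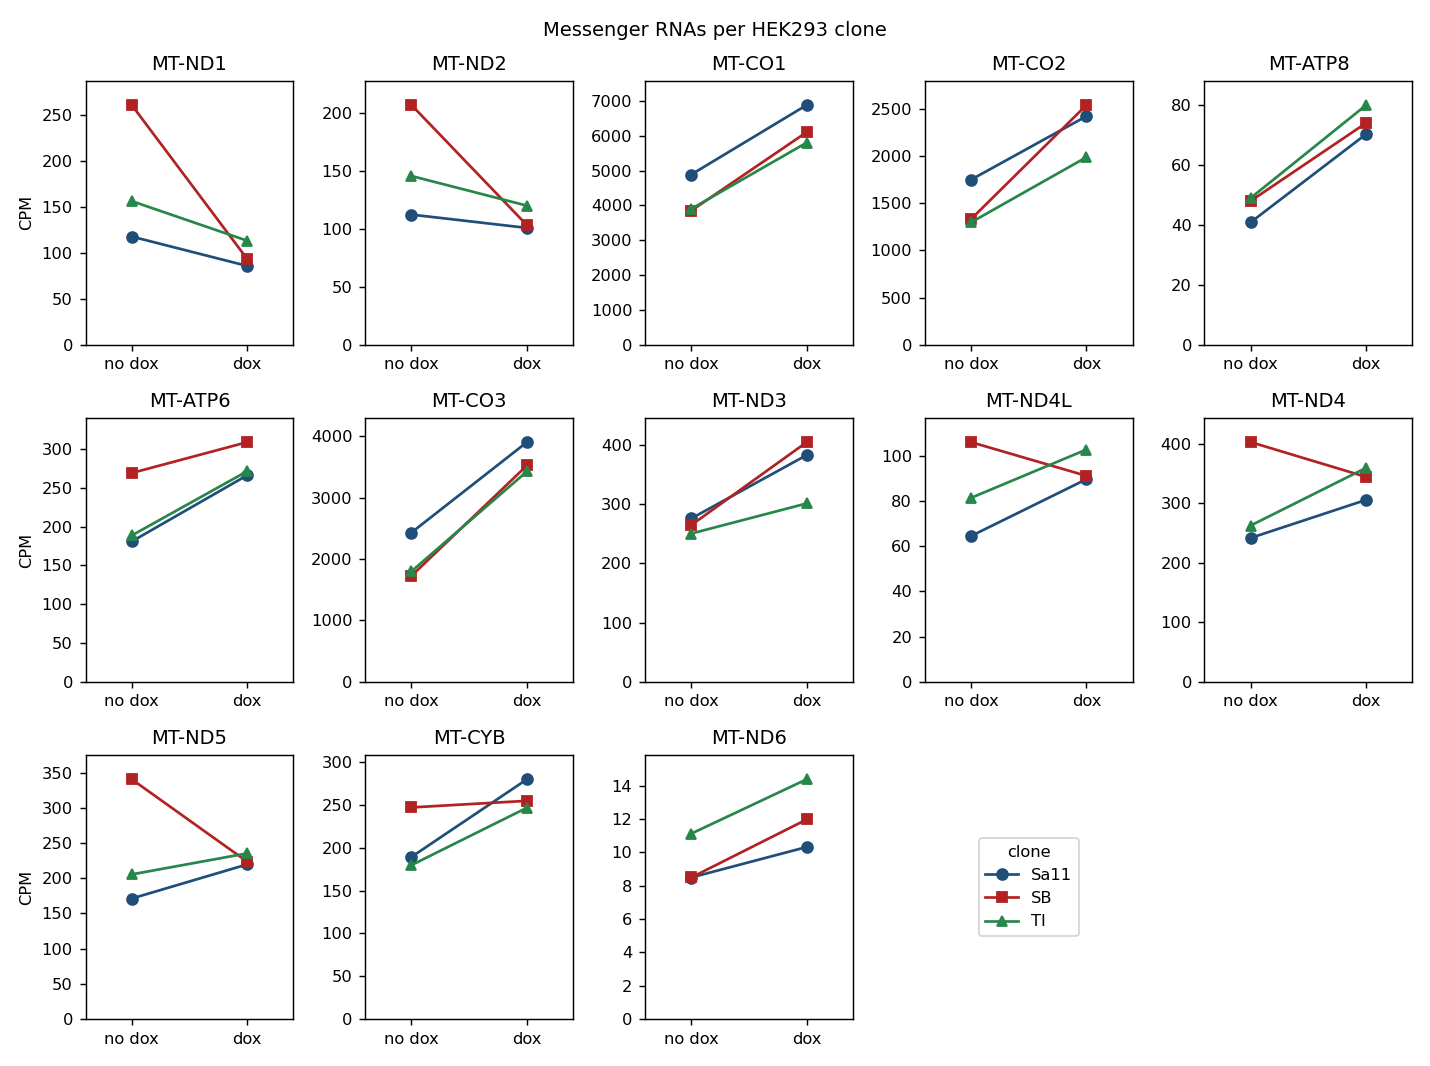
Level of each of the 13 mRNAs (vertical axes, CPM from 0) in the 3 HEK293 clones after 8 days without doxycycline (left) and with doxycycline (right), with a line joining the 2 libraries of a clone. MT-CO1, MT-CO2, MT-CO3, MT-ATP8 and MT-ND3 are lower without doxycycline in every clone, whereas MT-ND1 and MT-ND2 are higher in every clone.

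Nuclear genes in HEK293 did not follow 1 direction. In complex IV 4 of 11 genes fell and in complex I 5 of 37, the second near the 10.9% of all genes that fell, with COX8A at -0.77 ± 0.21 and NDUFB4 at -1.31 ± 0.15. Of the list for mitochondrial DNA maintenance and transcription 3 rose and 0 fell of 17, while 11.1% of all genes rose, among them TWNK, the helicase of mitochondrial DNA replication, at 0.95 ± 0.13. PTCD1, which acts on mitochondrial tRNA precursors, rose by 1.00 ± 0.14, SUPV3L1, the helicase of the RNA degradation machinery, by 0.60 ± 0.13, and the coactivator PPARGC1A by 0.63 ± 0.18.

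The order of TPM values is given for groups of both library sets. It is not the order of counts over annotated length. With DMSO at 2 days MT-ND4L (297 bases) held 2.96% of the mitochondrial mRNA counts on average and MT-CO1 (1542 bases) 31.6%. MT-ND4L and MT-ATP8 are short and share bases with a neighbour. Their places therefore depend on the authors' length correction and split of counts. In TPM, with DMSO at 2 days, MT-ND4L came first at 18717 ± 2558, then MT-CO3 at 14210.4 ± 1901, MT-CO1 at 12179.9 ± 1183 and MT-ATP8 at 11156 ± 5403, and MT-ND6 last at 447 ± 49.4 (SD, n = 3). MT-CO1 and MT-ATP8 did not differ beyond their spread. With IAA at 4 days MT-ND4L was also first, at 34151 ± 1029 TPM, followed by MT-CO3 at 27065 ± 2093, MT-ATP8 at 26577 ± 14773 and MT-ATP6 at 18035 ± 2891, and MT-ND6 was again last at 838 ± 392 (SD, n = 3). In the DMSO libraries at 1 day, which differ from those at 2 days in set, day and clones, MT-ATP8 was first at 53263 ± 395 TPM and MT-ND6, at 5988 ± 339 TPM, was above MT-ND5, MT-CYB, MT-ND1 and MT-RNR1 (SD, n = 2). In HEK293 the 3 oxidase subunits led, with MT-CO3 at 4064 ± 774 TPM without doxycycline and 7588 ± 559 TPM with it (SD, n = 3 each).

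The tRNA counts came mostly from 1 strand. Only 8 of the 22 tRNA genes are annotated on the - strand, opposite to 12 of the 13 mRNAs. In the set of 22 libraries these 8 held 21297 of 24296 tRNA counts, 87.7%, and in the set of 18 they held 721 of 1057, 68.2%. MT-TA led with 10959 counts over all 40 libraries, followed by MT-TS1, the serine tRNA next to MT-CO1, with 3666, and MT-TQ, the glutamine tRNA, with 2900. All 3 lie on the - strand. The strand setting of the authors' counting is not given in the sources used here, so a read of such a tRNA and a read of the + strand transcript that runs across its gene cannot be told apart.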

How the data were processed

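RNA was sequenced from 46 libraries. Poly-A enrichment was used for the 40 HCT116 libraries and ribosomal RNA depletion for the 6 of HEK293, per the labels' protocols. The estimated counts per gene and the TPM values are used as deposited by the authors. The submitters' processing notes list Salmon 1.10.2, kallisto 0.50.0, DESeq2 and GRCh38 with no roles. How strand and multi-mapping reads were handled is not given in the sources used here. All sample columns were matched to labels, leaving 0 unmatched.

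Counts were rounded. Library depth ran from 9527921 to 45747406 counts. edgeR 4.0.16 in R 4.3.3 was run with TMM factors, filterByExpr, quasi-likelihood tests and Benjamini-Hochberg adjustment over all genes at 0.05, in 3 fits: 32 degron libraries (18877 genes, 31 mitochondrial), 8 Ku86 libraries (16726 genes, 29 mitochondrial) and 6 HEK293 libraries (15549 genes, 13 mitochondrial). Differences between responses are contrasts of 4 groups. CPM use the TMM library sizes, and standard errors are the absolute log2 fold change divided by the square root of F. Each clone gave a library to either arm of a degron or HEK293 comparison, which pairs them by origin; deviations of same-clone libraries from their group means correlated at -0.217 to 0.545 over comparisons. The lowest chi-square per degree of freedom between replicate libraries was 1.98, so none was counted as a duplicate. The scripts were tested on simulated data.

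Alternatives were RLE factors, no count filter, blocking on clone or replicate number, library sizes over nuclear genes, fits to the compared groups alone, DESeq2 1.42.0, limma 3.58.1 on log2(TPM + 1), other forms of the share, and each library left out in turn. Leaving 3 libraries out together and adding the nuclear copies to the share were chosen after seeing the data. The genes, lists and tests were chosen with earlier results of these data known. Named are all mRNAs and rRNAs at 4 days of IAA, elsewhere the 2 mRNAs or rRNAs with the largest change and MT-ND6, tRNAs that passed the filter, and up to 3 called genes per nuclear list; exceptions are marked. Sequences and coordinates come from the GENCODE 29 annotation and transcripts of GRCh38.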

Additional observations from a re-analysis of the deposited data

Results flagged for a closer look

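The 3 tests of a difference between responses each called mitochondrial genes, and these are listed here because a test of the difference itself passed. In the inhibitor and MAVS tests the control times, and in the MAVS test also the clones and library sets, differ between the responses, so their parts cannot be told apart. With the CDK4/6 inhibitor the 4-day IAA response was more negative than without it for 17 of 31 mitochondrial genes, against 2.5% of all genes. The differences in log2 fold change were -3.04 for MT-ATP8, -2.26 for MT-ATP6 and -2.21 for MT-ND6. Without MAVS the 4-day IAA response was more negative than in MAVS-intact clones for 7 of 31, against 2.39% of all genes. MT-ATP6 differed by -1.55 and lost its call in 6 of the 12 fits that left out 1 library. The number of calls ran from 2 to 10 in those fits. With Cre the 4OHT response differed from that without Cre for 20 of 29 genes, 18 more positive and 2 more negative. Of all genes 18.8% and 22.4% were called in these directions, so differences were widespread. The values were 0.78 for MT-ND3 and 0.71 for MT-CYB.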

How the results depend on the processing

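The higher shares at 4 days of IAA and with Cre and the lower share in HEK293 without doxycycline kept their direction under the alternatives run, and the counts of called genes depended on the setting in places. Without the count filter they were 6 (2 in the report) for IAA 2 d, 19 (12) for IAA 6 d, 4 (2) for 6 against 4 days, 18 (4) for IAA with the inhibitor at 4 days, 2 (0) in MAVS-/- clones and 16 (7) for the MAVS difference. With limma on log2(TPM + 1) they were 1 for IAA 2 d, 7 for IAA with the inhibitor at 4 days, 4 for the MAVS difference, 4 without Cre (12), 13 for the Cre difference (20) and 2 in HEK293 (6). In fits to the compared groups alone they were 4 for IAA 2 d, 0 for 6 against 4 days and 7 for the inhibitor difference (17). For 6 against 4 days RLE factors and DESeq2 each gave 1, and DESeq2 gave 1 in MAVS-/- clones. Without the 3 libraries that stood apart, 4 genes were called for 6 against 4 days and 12 for the MAVS difference. With each library left out in turn the counts ran over 0 to 2 (IAA 2 d), 10 to 16 (IAA 4 d), 7 to 16 (IAA 6 d), 0 to 6 (6 against 4 days), 3 to 9 (IAA with inhibitor at 4 days), 10 to 16 (inhibitor alone), 10 to 20 (inhibitor difference), 0 to 1 (MAVS-/-), 2 to 10 (MAVS difference), 5 to 12 (no Cre) and 1 to 6 (HEK293). Those fits leave some arms with a lone library, assumed to vary like the others. With the clone or replicate number as a paired replicate block, 16 genes were called at 4 days of IAA, 9 at 6 days, 15 with the inhibitor alone, 23 with Cre and 9 in HEK293, and no count moved by more than 1.5 times; the Ku86 replicate numbers are only names (r = 0.0504 and 0.0912 with and without Cre). For the log2 ratio of shares, the share of TPM turned -0.12 into 0.063 at IAA 2 d, -0.04 into 0.089 for IAA with inhibitor at 2 days and -0.03 into 0.063 in MAVS-/- clones. With Cre the ratio of 0.42 was 0.40 for TPM, 0.44 for mRNAs only and 0.46 against nuclear counts, and the Cre difference of 0.43 was 0.34 for TPM. The inhibitor difference of -1.29 was -0.83 without the 3 libraries. Single libraries left out gave -1.45 to -0.96 for it, 0.37 to 0.50 for the Cre difference and -0.16 to 0.059 for IAA with inhibitor at 2 days. No value past the threshold reversed. Values near 0 that changed sign were MT-RNR1 at IAA 4 d (0.016; -0.065 with limma, -0.00746 without the 3 libraries, -0.073 to 0.080 with single libraries left out, -0.00792 without IAA clone 1) and MT-ND6 with single libraries left out at IAA 1 d (-0.41 to 0.10), IAA 2 d (-0.073 to 0.20), IAA 6 d (-0.34 to 0.16) and IAA with inhibitor at 2 days (-0.64 to 0.23). The causes were not tested. tRNAs in the set of 18 libraries are limited by depth, at 2 to 249 counts per library.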
